A study of Mus musculus with 6 samples.

Results

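The 2 lncRNA probes of chromosome 3 described here are ASMM10P024682, which the study's list names Setd7, and ASMM10P025847, which it names 5031434O11Rik. They are 2 of the 43528 probes that passed the filter on dim signals, out of 60915 non-control probes on the array. Both were selected on the size of their difference between Nrf2 (-/-) and Nrf2 (+/+) mice in these same arrays, so the genotype difference is given below as a description, with no test. Hippocampal RNA was taken from 3 male mice labelled wild type, Nrf2 (+/+), and 3 male mice labelled Nrf2 gene knockout, Nrf2 (-/-), all of the ICR background and 3 to 4 months old, with 1 Arraystar mouse lncRNA array (Agilent, Cy3) per mouse. No treatment or further allele is given for either group, and whether the groups were littermates is not given in the sources used here. There were 3 arrays per genotype, and this number bounds how precise the values can be.

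Nrf2, encoded by Nfe2l2, is a transcription factor that binds antioxidant response elements and drives genes of redox defense and detoxification. Setd7 encodes a SET-domain lysine methyltransferase that places a single methyl group on lysine 4 of histone H3 and also methylates non-histone proteins. Long non-coding RNAs are transcripts without a recognised protein product, and many lie beside or across a protein-coding gene, on the same strand or on the opposite one. 5031434O11Rik is such a transcript, and no function of it is stated here.

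The study's list places the Setd7 lncRNA on the minus strand and 5031434O11Rik on the plus strand of chromosome 3. In RefSeq (assembly GRCm38.p6), the genes Setd7 and 5031434O11Rik follow each other in the gene order and overlap at the start of Setd7. The array design follows another assembly, mm9, so only the order and the names were taken from RefSeq. The Setd7 lncRNA carries the symbol and the strand of the protein-coding gene. The probe sequences were not used here, so how much of this signal could come from Setd7 mRNA was not tested.

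Because the 2 genes overlap at the start of Setd7, the RefSeq sequence just before that start is shown. The 250 bases before the Setd7 start (GRCm38.p6, chr3:51560824-51561073, minus strand, written 5′ to 3′) lie inside the annotated span of 5031434O11Rik, and their 17 CpG dinucleotides are in capitals.
Setd7 promoter: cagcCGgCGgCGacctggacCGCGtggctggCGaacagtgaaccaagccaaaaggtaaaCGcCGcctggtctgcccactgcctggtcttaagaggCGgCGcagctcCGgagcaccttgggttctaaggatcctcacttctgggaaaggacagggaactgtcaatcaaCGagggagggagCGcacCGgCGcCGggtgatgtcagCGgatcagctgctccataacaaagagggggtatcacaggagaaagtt
With the first 50 transcribed bases added, the 300-base window held 62.7% G or C and 21 CpG dinucleotides, against medians of 52.7% and 7 over 32851 RefSeq promoter windows of the same length. Of those windows, 75.2% held fewer CpG dinucleotides. Motifs were searched on both strands. The core of the antioxidant response element, TGACNNNGC, had 0 matches in the Setd7 window and was found in 12.4% of all windows. The other letters searched also had 0 matches, and the share of all windows that held them was 1.79% for the cAMP response element TGACGTCA, 7.15% for the E-box CACGTG, 35.7% for the GC box GGGCGG, 37.4% for CCAAT and 13.6% for TATAAA. The absence of a match says only that these letters are not in this window. 5031434O11Rik had no promoter entry.

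The labels were first checked on the targeted gene. Its probe could be named only through the study's list of mRNAs changed between these same groups, so its difference is not independent of that choice. The Nfe2l2 probe on chromosome 2 (ASMM10P020792) had log2 signals of 12.40, 11.93 and 12.28 in Nrf2 (+/+) mice and 7.95, 7.82 and 8.02 in Nrf2 (-/-) mice. Mean log2 signals were 12.20 ± 0.24 and 7.93 ± 0.10 (SD, n = 3), a difference of -4.27, and the probe was well above background on all 6 arrays. Each array held 62939 spots, and 65.5% to 75.7% of the probes were well above background. Median signals before normalization were 86.3 to 107 in Nrf2 (+/+) and 136 to 181 in Nrf2 (-/-), so the arrays of the genotypes also differed in brightness, and quantile normalization gave all arrays the same distribution. Of 18 cell type marker genes, 1 had a named probe, the striatal marker Drd2, through the study's list of changed mRNAs. The tissue label was therefore not checked against markers.

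The Setd7 lncRNA was not well above background in Nrf2 (+/+) mice and was well above it in Nrf2 (-/-) mice. Its quantile-normalized log2 signals were 2.58, 2.86 and 2.56 in the Nrf2 (+/+) replicates and 6.90, 6.73 and 7.17 in the Nrf2 (-/-) replicates. The genotypes did not overlap. Mean log2 signals were 2.67 ± 0.17 and 6.94 ± 0.22 (SD, n = 3). The Nrf2 (+/+) values lie at the background, so the measured difference of 4.27 does not give the size of the transcript's change. The probe passed the filter on dim signals through the Nrf2 (-/-) arrays alone. In bulk tissue, fewer cells that contain a transcript and less of it per cell cannot be told apart.

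The scanner flagged the Setd7 lncRNA spot as well above background on 0 of 3 Nrf2 (+/+) arrays and on 3 of 3 Nrf2 (-/-) arrays. By the weaker flag, positive and significant, it passed on 1 of 3 Nrf2 (+/+) arrays, that of replicate 2. The Nrf2 (+/+) values are therefore upper limits of the transcript's signal. Set against the dimmest signals that were still well above background on those arrays, at log2 5.39, 4.76 and 5.21, the Nrf2 (-/-) mean of the Setd7 lncRNA was at least 3.52-fold higher. On the Nrf2 (+/+) arrays, all 1265 probes within 0.1 of the log2 level 6.94 were well above background, on each of the 3 arrays. A signal at the Nrf2 (-/-) level would thus have been detected on those arrays.

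**Figure D1:**
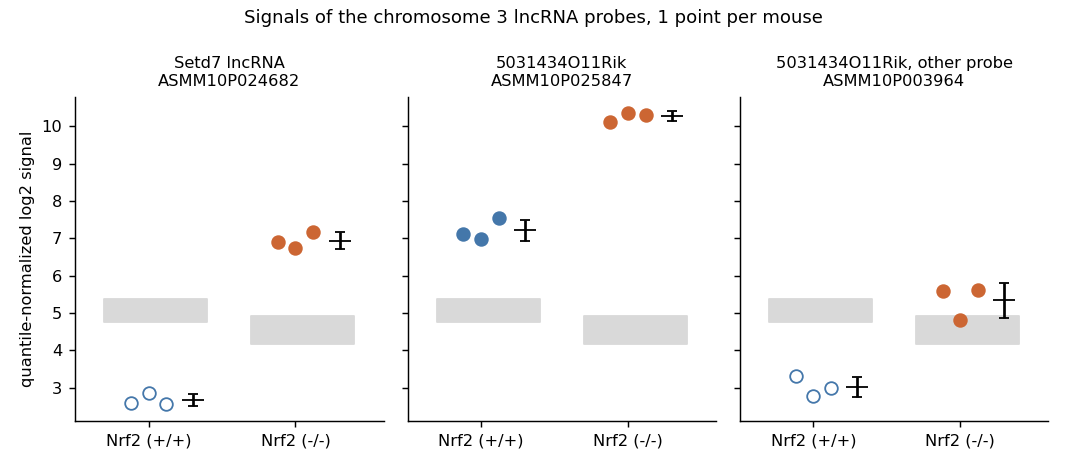
Quantile-normalized log2 signal (y axis) of 3 probes in Nrf2 (+/+) and Nrf2 (-/-) mice, 1 point per mouse with the mean ± SD beside it; filled points are well above background, open points are not, and grey bands span the dimmest well-above-background signals of the 3 arrays of each genotype. The Setd7 lncRNA lies below the band in Nrf2 (+/+) at 2.56 to 2.86 and above it in Nrf2 (-/-) at 6.73 to 7.17, and 5031434O11Rik lies above it in both genotypes.

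Before background subtraction, the Setd7 lncRNA spot had median pixel signals of 36.5, 41 and 37 on the Nrf2 (+/+) arrays, where the local background was 21, 26 and 17. On the Nrf2 (-/-) arrays its median pixel signals were 213, 184 and 193, with a local background of 22, 23 and 16. The local background was thus alike in both genotypes and the spot was brighter in Nrf2 (-/-). Of the 300 negative-control spots, which carry sequences without a mouse target, 299, 300 and 300 had a lower processed signal than the Setd7 lncRNA on the Nrf2 (-/-) arrays. On the Nrf2 (+/+) arrays its processed signal lay within the range of these spots, whose medians were 7.28, 4.61 and 4.91, and no order is read there. The processed signal was 7.25, 5.18 and 4.84 on the Nrf2 (+/+) arrays, with the software's own errors at 7.27, 4.67 and 4.87, so 2 of these 3 values were no larger than their error. On the Nrf2 (-/-) arrays it was 172, 145 and 155. The well-above-background flag was passed by 41 of the 300 negative-control spots on each Nrf2 (+/+) array. It was passed by 40, 42 and 42 of them on the Nrf2 (-/-) arrays. The flag alone therefore does not show that a transcript was present.

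The size of the Setd7 lncRNA difference depended on how the spot was measured. As measured, before normalization between arrays, the ratio of the genotype means was 27.4 for the processed signal. It was 10.5 for the median pixel signal minus the local background and 5.15 for the median pixel signal as scanned. The Nrf2 (+/+) values behind these ratios were not well above background, so none of them is read as a fold of the transcript. They also contain the higher overall brightness of the Nrf2 (-/-) arrays. With normexp correction of the median pixel signals and an offset of 50 added to every value, the log2 difference was 1.44 in place of 4.27. That setting changes the signal column, the correction and the offset together, an added offset shrinks the differences of dim spots, and which of the 3 moved the value was not tested. The bound of 3.52-fold was computed on the software's processed signals and does not hold in that setting, where the difference itself is smaller than the bound. The direction was the same under every measure of the spot.

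**Figure D2:**
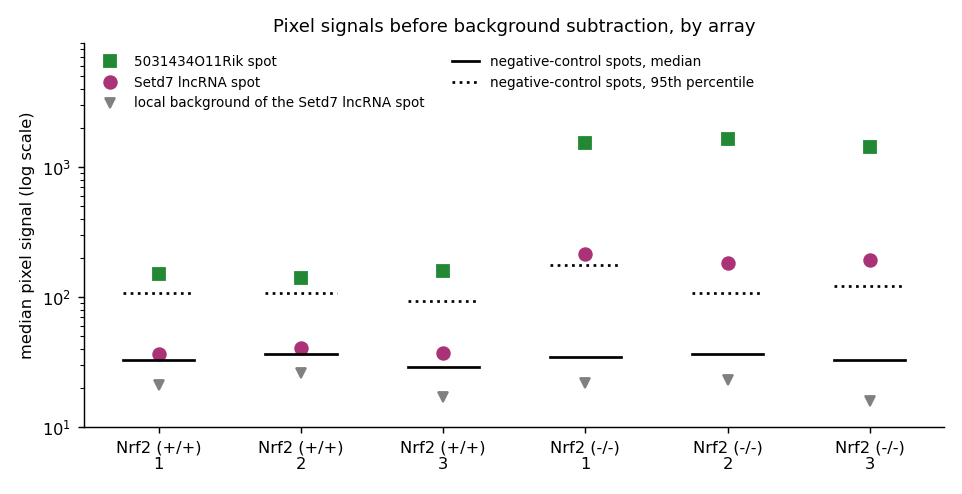
Median pixel signal before background subtraction (y axis, log scale) of the Setd7 lncRNA and 5031434O11Rik spots on each array (x axis, genotype and replicate), with the local background of the Setd7 lncRNA spot and the median and 95th percentile of the 300 negative-control spots. The Setd7 lncRNA spot lies near the negative-control median in Nrf2 (+/+), at 36.5 to 41, and above the 95th percentile in Nrf2 (-/-), at 184 to 213.

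5031434O11Rik was detected in both genotypes and was higher in Nrf2 (-/-) mice. Its log2 signals were 7.12, 6.98 and 7.54 in Nrf2 (+/+) and 10.12, 10.37 and 10.32 in Nrf2 (-/-). The genotypes did not overlap, with a gap of 2.58 between the nearest mice. Mean log2 signals were 7.21 ± 0.29 and 10.27 ± 0.13 (SD, n = 3), a difference of 3.06 (SE 0.22), or 8.33-fold. The spot was well above background on all 6 arrays and brighter than all 300 negative-control spots on each of them.

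The 5031434O11Rik spot was also brighter in Nrf2 (-/-) without normalization between arrays. Its median pixel signals were 152, 140 and 160 on the Nrf2 (+/+) arrays and 1525, 1652 and 1411 on the Nrf2 (-/-) arrays. The ratio of the genotype means was 13.0 for the processed signal and 11.7 for the median pixel signal minus the local background. These ratios contain the higher overall brightness of the Nrf2 (-/-) arrays, which normalization removes. With normexp and the offset of 50 the log2 difference was 2.58. Neither member's spot was saturated or marked as an outlier on any array.

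Another probe of the study's list, ASMM10P003964, also carries the name 5031434O11Rik and the plus strand of chromosome 3. Its log2 signals were 3.30, 2.77 and 3.00 in Nrf2 (+/+) and 5.60, 4.80 and 5.62 in Nrf2 (-/-). The genotypes again did not overlap, and the Nrf2 (-/-) replicate 2 was the lowest of its group. Mean log2 signals were 3.02 ± 0.27 and 5.34 ± 0.47 (SD, n = 3), a difference of 2.32 (SE 0.28). It passed the background flag on 0 of 3 arrays of Nrf2 (+/+) and 3 of 3 of Nrf2 (-/-), which allows only the statement that it was at least 1.17-fold higher.

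This dim probe carries less information than the bright one. Its median pixel signals were 29, 36 and 33 in Nrf2 (+/+) and 107, 79 and 87 in Nrf2 (-/-). On the Nrf2 (-/-) arrays they lay under the 95th percentiles of the negative-control spots, at 176, 107 and 121. Its processed signals there, 70.7, 42.8 and 51.4, also lay under the controls' 95th percentiles of 137, 71.3 and 83.5. The flag on those arrays therefore does not set this probe apart from spots without a mouse target. On the Nrf2 (+/+) arrays, 7.25%, 100% and 81.3% of the 1104 probes within 0.1 of the log2 level 5.34 were well above background, so a signal at the Nrf2 (-/-) level could have been missed on replicates 1 and 3. The dimmest well-above-background signal of replicate 1, at 5.39, lies above the Nrf2 (-/-) mean, so the bound of 1.17-fold holds against the mean of the 3 arrays' limits and not against each. With normexp and the offset of 50 its log2 difference was 0.69. Both probes of 5031434O11Rik thus had higher means in Nrf2 (-/-) in either setting, with smaller differences in the one with the offset. This probe came from the study's list of lncRNAs changed in these mice, so its direction is not independent of the choice.

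Against the whole array, the differences of both members lay at its upper end, which is what they were chosen for. The difference over the 43528 tested probes had a median of -0.01 and ran from -0.54 at the 5th to 0.55 at the 95th percentile. Among the 38631 probes well above background on all 6 arrays, 5031434O11Rik ranked 2 by its rise, after Rbm45 on chromosome 2, which encodes an RNA-binding protein, at 3.58. The Setd7 lncRNA was given no rank, since its Nrf2 (+/+) values were not well above background, and under normexp with the offset of 50 its difference of 1.44 was smaller than the 2.58 of 5031434O11Rik. A measured difference of 3 or more on the log2 scale was seen in 5 probes (0.0115% of those tested), and both members are among them, the Setd7 lncRNA with this limit.

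Nrf2 (-/-) values all above the Nrf2 (+/+) values were seen in 1851 of 43528 probes (4.25%), both members among them. Detection on 0 Nrf2 (+/+) and 3 Nrf2 (-/-) arrays was seen in 295 probes (0.678%), the Setd7 lncRNA and the other 5031434O11Rik probe among them. These 295 probes had a median log2 difference of 0.45 with a 95th percentile of 1.69. Their Nrf2 (+/+) values were all below the detection flag, so the differences are not ranked. Over all tested probes, limma with Benjamini-Hochberg adjustment at 0.05 called 6 higher (0.0138%) and 15 lower (0.0345%) in Nrf2 (-/-). Leaving out any 1 array moved at least 1 of these counts by over 1.5 times, to 2 to 26 higher and 6 to 169 lower, the most without Nrf2 (-/-) replicate 2. With the slide, inferred from equal scan times, as a block the counts were 103 and 465. The methods' equal-variance test called 0, with 2535 probes at an unadjusted p under 0.05 against 2196 in limma. Nothing is read from these counts about the members, which were chosen on the same contrast.

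**Figure D3:**
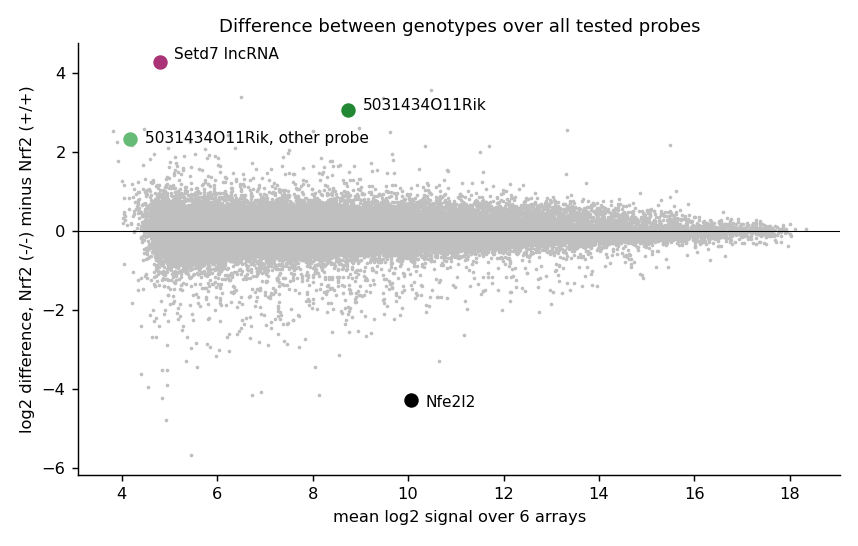
Log2 difference, Nrf2 (-/-) minus Nrf2 (+/+) (y axis), against the mean log2 signal over 6 arrays (x axis) for the 43528 tested probes in grey, with the Setd7 lncRNA, both 5031434O11Rik probes and Nfe2l2 in colour. The Setd7 lncRNA is plotted at 4.27 against Nrf2 (+/+) signals that were not well above background, 5031434O11Rik is at 3.06, and Nfe2l2 is at -4.27.

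The spread among mice can be read where the transcripts were detected. For 5031434O11Rik, the pooled SD of the log2 signal was 0.23, against a median of 0.32 over all tested probes, and 25.3% of the 2841 probes of a like mean level had a smaller SD. Its deviations from the genotype means ran from -0.23 to 0.33, beside a genotype difference of 3.06. For the Setd7 lncRNA the deviations of the Nrf2 (-/-) mice were -0.04, -0.20 and 0.24. Its spread in Nrf2 (+/+) mice is that of signals at the background and is not read as agreement between mice.

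The values within each slide and scan session that held both genotypes are given as a description, since the members were chosen on these same arrays and the Setd7 lncRNA was well above background on 0 Nrf2 (+/+) arrays. The slides and scan sessions were inferred from the arrays' scan times and are not named by the sample labels. The same scan time was taken as the same slide. By this reading both replicates 1 shared a slide, and there the log2 difference was 4.32 for the Setd7 lncRNA and 3.00 for 5031434O11Rik. Both replicates 3 shared another, where it was 4.61 and 2.78. Within the scan session that held Nrf2 (+/+) replicate 1 and Nrf2 (-/-) replicates 1 and 2, it was 4.24 and 3.13. Within the other session it was 4.46 and 3.06. Around each spot the neighbouring probes as a group, read by their median, did not share the difference. The 76 tested probes within 5 rows and columns of the Setd7 lncRNA spot had a median log2 difference of -0.06 (range -0.79 to 1.00), and the 77 around 5031434O11Rik had a median of 0.04 (range -1.68 to 2.18).

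**Figure D4:**
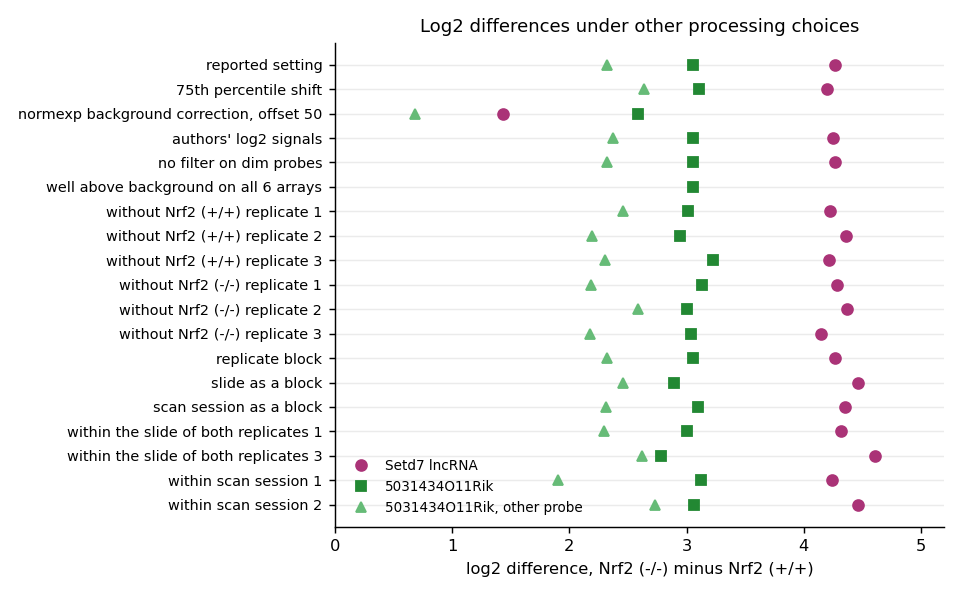
Log2 difference, Nrf2 (-/-) minus Nrf2 (+/+) (x axis), of the Setd7 lncRNA and both 5031434O11Rik probes under each processing choice (y axis), including each array left out and each slide or scan session alone. All points lie above 0, and normexp with an offset of 50 gives the lowest values, 1.44 for the Setd7 lncRNA, 2.58 for 5031434O11Rik and 0.69 for its other probe.

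The study's lists of lncRNAs and mRNAs changed in these arrays name 21 lncRNA probes and 16 mRNA probes on chromosome 3. They were chosen on the same mice, so their directions are a description. Of the lncRNA probes, 7 were higher and 14 lower in Nrf2 (-/-). Over all chromosomes the list held 48 higher and 230 lower among 278 lncRNA probes. The 2 members and the other 5031434O11Rik probe are 3 of the 7 higher ones. No median is given for these 7, since 4 of them, the Setd7 lncRNA, the other 5031434O11Rik probe, Chia and AK045762, were well above background on 0 Nrf2 (+/+) arrays. The 14 lower ones had a median log2 difference of -1.58, against -1.50 over all chromosomes. Of the mRNA probes, 7 were higher and 9 lower, the lower ones with a median of -1.09. No median is given for the higher ones, since Adh1 and Lce1m among them were well above background on 0 Nrf2 (+/+) arrays. Over all chromosomes the mRNA list held 109 higher and 303 lower, the lower ones with a median of -1.07.

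The chromosome 3 entries nearest to the members in log2 difference were dim. The lncRNA probe named Chia (ASMM10P026364), after a chitinase gene, had log2 signals of 2.51, 2.52 and 3.28 in Nrf2 (+/+) and 4.89, 4.84 and 5.38 in Nrf2 (-/-). It was well above background on the Nrf2 (-/-) arrays alone. No fold is given, since its Nrf2 (-/-) mean of 5.03 lay under the mean of the 3 Nrf2 (+/+) arrays' limits. Taken array by array, 5.03 was above the limit of Nrf2 (+/+) replicate 2, at 4.76, and under those of replicates 1 and 3. The lncRNA AK045762 had log2 signals of 4.52, 4.16 and 4.16 in Nrf2 (+/+) and 6.44, 5.27 and 6.28 in Nrf2 (-/-). On the processed signals, its Nrf2 (-/-) mean was at least 1.84-fold above the mean of the 3 Nrf2 (+/+) arrays' limits. This bound holds for the means and not for each mouse. Nrf2 (-/-) replicate 2, at 5.27, lay under the limit of Nrf2 (+/+) replicate 1, at 5.39. Gstm1, a glutathione transferase of detoxification, was picked from the lower chromosome 3 mRNAs after its values were seen. It had a mean log2 signal of 12.87 ± 0.14 in Nrf2 (+/+) and 11.64 ± 0.20 in Nrf2 (-/-) (SD, n = 3), a difference of -1.23.

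**Figure D5:**
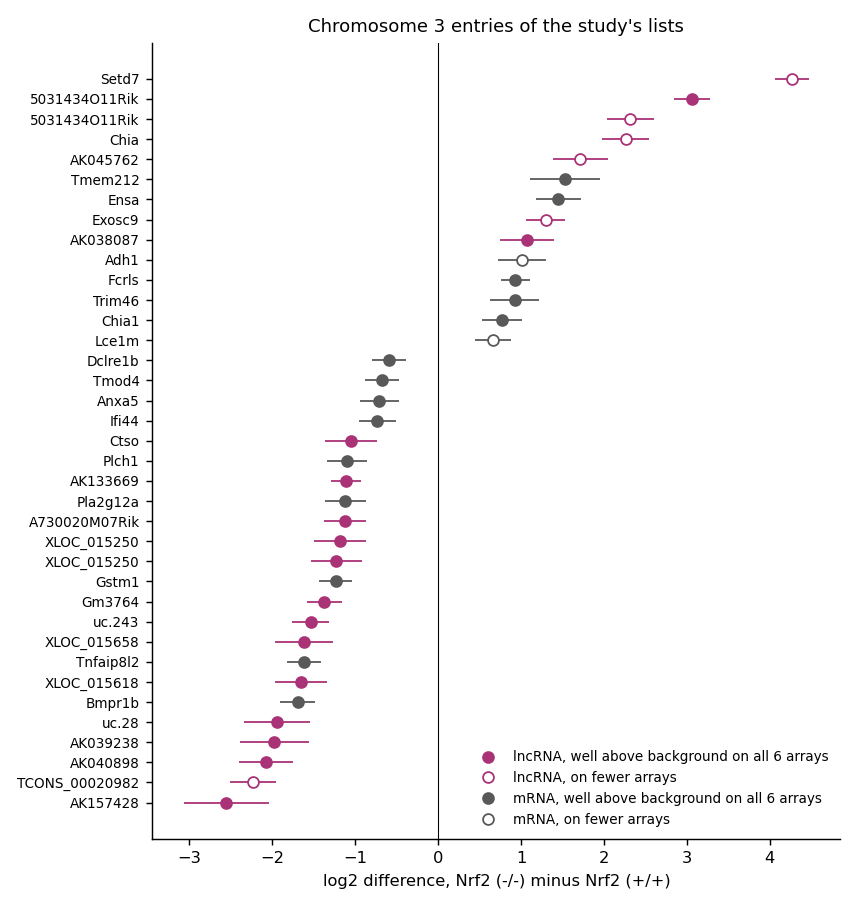
Log2 difference, Nrf2 (-/-) minus Nrf2 (+/+), with its SE (x axis) for the chromosome 3 probes of the study's lists (y axis, by symbol); filled points are well above background on all 6 arrays and open points on fewer. The Setd7 lncRNA at 4.27 is an open point, measured against signals at the background, and 5031434O11Rik is a filled point at 3.06.

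Genes beside the pair were not in the lists. Within 10 genes on each side of Setd7 in RefSeq order, 0 others were listed as changed, among them Rab33b, a small GTPase, Naa15, a subunit of an N-terminal acetyltransferase, Ndufc1, a subunit of mitochondrial complex I, Mgst2, a microsomal glutathione transferase, Maml3, a Notch coactivator, and Foxo1, a forkhead transcription factor. Their probes carry no gene name in the files, so their signals are not given, and absence from a list does not show that they did not differ. The lists hold 690, or 1.59%, of all tested probes, so a count of 0 among so few genes sets the locus apart from no other. For the same reason the Setd7 mRNA and the 13 other genes of the histone H3 lysine 4 methyltransferase list, of which 0 had a named probe, were not analysed here.

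Likeness of pattern was measured as the root mean square difference between log2 signals, each centred on its mean over the 6 arrays, among 689 named probes. The nearest to the Setd7 lncRNA were Rbm45 at 0.44, 5031434O11Rik at 0.67 and Kif14, a mitotic kinesin, at 0.88. Rbm45 had a mean log2 signal of 8.69 ± 0.19 in Nrf2 (+/+) and 12.27 ± 0.48 in Nrf2 (-/-) (SD, n = 3). The nearest to 5031434O11Rik were Krtap4-13, a keratin-associated protein gene, at 0.40, Kif14 at 0.42 and Chia at 0.44, and the Setd7 lncRNA ranked 11. With 3 mice per genotype this measure reads mainly the size of the genotype difference, for which the members and the lists behind the named probes were chosen, and nothing is read from the nearness of the 2 transcripts. The values of the Setd7 lncRNA, Kif14 and Chia also rest on Nrf2 (+/+) signals that were not well above background.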

How the data were processed

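RNA of 6 hippocampi was hybridized after rRNA removal as cRNA made with random primers. The authors extracted spot intensities with Agilent Feature Extraction 11.0.1.1, which subtracts background and replaces very low values by surrogates, so intensity at the floor has no order. They also deposited log2 signals normalized by quantiles, from which the values computed here differed by a median of 0.000974. The deposited flags gave detection, saturation and outliers. Here control probes were left out, outlier spots were set to missing, spots of a probe were averaged, and log2 processed signals were quantile-normalized. Of these, the probes that passed the well-above-background flag at least 3 times in 6 were fitted with limma 3.58.1 (lmFit and eBayes, R 4.3.3) without covariates, checked on simulated data. The rest was done in Python 3.11.15 (pandas 2.3.3, numpy 2.4.6) and drawn with matplotlib 3.10.9.

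The members and lists were chosen with earlier results of these data known. Probes were named through the study's lists of changed lncRNAs (303 entries) and mRNAs (412). The columns of the authors' comparisons, fold change and p-value, served only as a key to find each entry's probe, at a relative tolerance of 0.0001. Every entry met exactly 1 probe, giving 278 and 412 different probes. Named were the members, every probe with their names, Nfe2l2, the nearest chromosome 3 entries, the 3 most alike named probes and genes beside Setd7, with Gstm1 picked after its values were seen. Where a genotype had no array well above background, a fold is a lower bound, the brighter mean over the mean of the dimmest well-above-background signals. Alternatives were a 75th percentile shift, normexp (offset 50) on median signals, the authors' log2 signals, other filters, each array left out, the replicate number, slide or scan session as a block, an intensity trend and the methods' equal-variance test. Arrays with the same scan time were taken as a slide, and scan sessions were split at long gaps between scan times. The blocks by scan session and the values within slides and sessions were added after seeing the data.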

Additional observations from a re-analysis of the deposited data

How the results depend on the processing

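No setting turned the direction of a member. 5031434O11Rik kept its log2 difference within the spread between mice in 16 of 18 settings. Among these, the other filters and the replicate block left it at 3.06 by construction and say nothing about stability. For the Setd7 lncRNA and the other 5031434O11Rik probe no such count is given, since their Nrf2 (+/+) values were not well above background. Under normexp, which here also took median signals and added an offset of 50, the differences of the 3 probes in this order were 2.58, 1.44 and 0.69. With the slide as a block the Setd7 lncRNA was at 4.47. On the slide of both replicates 3 it was at 4.61 and 5031434O11Rik at 2.78. The other 5031434O11Rik probe was at 1.90 in scan session 1 and 2.73 in scan session 2. Leaving out 1 array gave 2.94 to 3.22 for 5031434O11Rik, 4.15 to 4.37 for the Setd7 lncRNA and 2.18 to 2.59 for the dim probe. The ranges of the Setd7 lncRNA and the dim probe rest on Nrf2 (+/+) signals at the background and are not read as stability. With the filter that asks for all 6 arrays, the Setd7 lncRNA and the dim probe were not fitted.

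Counts over all probes depended strongly on the setting, and why was not tested. Against 6 higher and 15 lower, the 75th percentile shift gave 10 higher and normexp 8 lower. No filter gave 2 higher and 7 lower, and detection on all 6 arrays gave 3 and 6. The slide as a block gave 103 and 465, and the scan session 3 higher. Leaving out 1 array gave 2 to 26 higher and 6 to 169 lower, with 26 and 169 without Nrf2 (-/-) replicate 2. The replicate block in limma gave 0 and 0 (7090 probes at an unadjusted p under 0.05), and gave the Setd7 lncRNA, 5031434O11Rik and its dim probe 4.27, 3.06 and 2.32. The methods' equal-variance test gave 0 and 0 (2535 unadjusted), against 2196 unadjusted in limma as reported. The numbers were not taken to pair the mice, since deviations from the genotype means correlated at -0.148, 0.426 and 0.812 for numbers 1, 2 and 3, best with the same number for 2 and 3 and not for 1. The planned count over Setd7 mRNA and other probes of its locus was not run, since no such probe could be named. Signal over background limits the Setd7 lncRNA in Nrf2 (+/+) to an upper limit.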
